A study of Mus musculus with 8 samples.

Results

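The genes described here encode ion channels of the sperm tail. They are Catsper1, Catsper2, Catsper3 and Catsper4, Catsperb, Catsperg1 and Catsperg2, and Kcnu1. CatSper is a calcium channel found in the membrane of the sperm flagellum. Its pore is built from the 4 proteins CATSPER1 to CATSPER4, which assemble with auxiliary subunits such as those encoded by Catsperb and by Catsperg1 and Catsperg2, a pair of paralogs in the mouse. The channel opens at alkaline intracellular pH and carries the calcium entry that drives hyperactivated motility, and male mice lacking a pore subunit are infertile. Kcnu1 encodes SLO3, the alkaline-activated potassium channel that sets the membrane potential of mouse sperm. The mRNAs of these channels are made in germ cells of the testis late in meiosis and after it.

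The 8 genes were taken by name from the array annotation. They were measured by 13 of the 55681 probes on the array, of which 12 were kept for testing and represent 8 of the 26584 genes tested. Testes were profiled from C57BL/6 littermates bred from heterozygotes for Ip6k1, the gene of an inositol hexakisphosphate kinase that makes an inositol pyrophosphate. The groups were Ip6k1-/- testes at 26 dpp (days postpartum), Ip6k1+/+ testes at 26 dpp, Ip6k1-/- testes at 17 dpp and Ip6k1+/+ testes at 17 dpp, called KO and WT below. Each group had 2 arrays (n = 2), which the labels call biological replicates. No other allele or agent is given in the labels, nor the part of Ip6k1 that was removed.

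A level is given on a log2 scale relative to the array's own 75th percentile of signal, so that 0 stands for a signal equal to that percentile and each step of 1 for a doubling. Levels are compared between arrays for 1 probe at a time, never between probes. A probe not well above the scanner's local background has only an upper bound on its level, and a difference against a whole group of such arrays is written as "at least". A test counted as passed at an adjusted p under 0.05 in limma, with Benjamini-Hochberg adjustment over all 26584 genes. The fit pools the spread within all groups, so the standard error (SE) of a gene is the same in KO and WT testes. A gap between the arrays of any group therefore widens the error of every comparison of that gene. The median standard deviation of all genes was 0.59 in KO testes of 26 dpp. It was 0.15 in WT testes of either age and 0.19 in KO testes of 17 dpp.

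Facts of the whole series bear on every result below. Ip6k1 itself read 1.55 and 1.49 in KO testes and 2.92 and 2.89 in WT testes at 26 dpp, and 1.58 and 1.67 in KO and 2.38 and 2.48 in WT testes at 17 dpp, so that all KO arrays lay below all WT arrays, although neither difference passed (limma adjusted p = 0.523 and 1.00). All 8 arrays lay on 1 slide with 1 scan time, and the ages lay on different rows of the slide, so age and slide row cannot be told apart. KO replicate 2 at 26 dpp stood apart. Over 26584 genes, which are not independent replicates, it correlated at 0.863 with KO replicate 1 of the same age and at 0.917 to 0.948 with the arrays of 17 dpp. In the KO testes of 26 dpp the summed signal of 10 elongating spermatid markers, in multiples of the 75th percentile, was 866 in replicate 1 and 0.756 in replicate 2, against 570 and 1601 in WT, and Prm1, Odf1 and Oaz3 were not well above background in KO replicate 2. The sum of 11 round spermatid markers was 377 and 229 in KO, against 371 and 429 in WT, but their median level was 3.84 and −2.41 in KO, against 3.77 and 4.37 in WT, with Acrv1 and Spata19 not well above background in KO replicate 2. The sum of 8 pachytene and diplotene spermatocyte markers was 470 and 470 in KO, against 499 and 518 in WT, and their median level 4.91 and 3.43 in KO, against 4.85 and 5.17 in WT. The 7 spermatogonial markers summed to 18.9 and 77.3 in KO, against 17.2 and 16.3 in WT. Sums of somatic markers differed too, but not always their medians. The 7 Sertoli markers summed to 218 and 481 in KO, against 228 and 202 in WT, and to 455 to 495 at 17 dpp. Their median level was 2.02 and 2.56 in KO, against 2.66 and 1.71 in WT, so by it KO replicate 2 lay between the WT arrays. The 4 peritubular myoid markers summed to 22.4 and 42.1 in KO, against 24.1 and 20.2 in WT. Their median level was 0.59 and 0.24 in KO, against 0.64 and 0.42 in WT. The 4 macrophage markers summed to 4.17 and 3.33 in KO, against 5.35 and 4.17 in WT. The 5 Leydig markers measured summed to 16.4 and 1.02 in KO, against 23.3 and 11.49 in WT. Their sums at 17 dpp were 19.8 to 27.7, so KO replicate 2 lay below the arrays of both ages. Cyp11a1 was not well above background in it. The part of these differences in germ cell and somatic markers in the channel results was not tested, and in whole testes fewer cells of a type and less RNA per cell cannot be told apart. The age of this animal rests on its label alone.

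The probes set what can be said of each gene, and those on which results turn are shown first, 5′ to 3′ in the sense of the mRNA. All are 60 bases long, with a GC content of 35% to 50%. The Catsper1 probe and both Catsper3 probes are shown whole because these genes were the ones not detected in several groups. The probe for Catsper1 lies at chr19:5341470-5343899 (mm9, plus strand, from the files), a span longer than the probe, so it crosses a splice junction. The first Catsper3 probe likewise spans chr13:55887828-55900150 (mm9, plus strand), and the second lies at chr13:55900125-55900184, with a longest shared run of 10 bases between them.
Catsper1: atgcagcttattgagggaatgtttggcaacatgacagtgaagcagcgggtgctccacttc
Catsper3 junction probe: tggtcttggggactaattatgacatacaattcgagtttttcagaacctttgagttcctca
Catsper3 contiguous probe: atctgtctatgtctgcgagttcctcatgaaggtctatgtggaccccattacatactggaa

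The Catsperg1 and Catsperg2 probes are shown because the paralogs are hard to separate. The only Catsperg1 probe (chr7:29982064-29982123, mm9, minus strand) and one Catsperg2 probe (chr7:30510284-30510343, minus strand) are each annotated to transcripts of both genes, so their signals cannot be assigned to 1 paralog. The other Catsperg2 probe (chr7:30482245-30482304, minus strand) lists Catsperg2 transcripts alone and represents that gene below. Its last 30 bases are given, and capitals mark AATAAA, the hexamer that precedes polyadenylation, found in 3 of the 13 probes.
Catsperg1, shared: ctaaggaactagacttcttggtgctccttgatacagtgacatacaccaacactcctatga
Catsperg2, shared: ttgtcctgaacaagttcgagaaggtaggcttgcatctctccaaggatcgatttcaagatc
Catsperg2, own: ctgacatgctggaaAATAAAccttttgctt

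Catsper2 had a pair of probes that did not read alike in every array. The brighter one lies at chr2:121220119-121220178 (mm9, minus strand) and is annotated to the RefSeq transcript. The dimmer one lies downstream at chr2:121218394-121218453 and shares only 1 Ensembl transcript with it. The first 30 bases of each are shown, and their longest shared run is 5 bases.
Catsper2, brighter: gacagctgtgtccttggacccagcaaaagc
Catsper2, dimmer: ctcaggcatgtggtacacagaaatatgctc

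**Figure D1:**
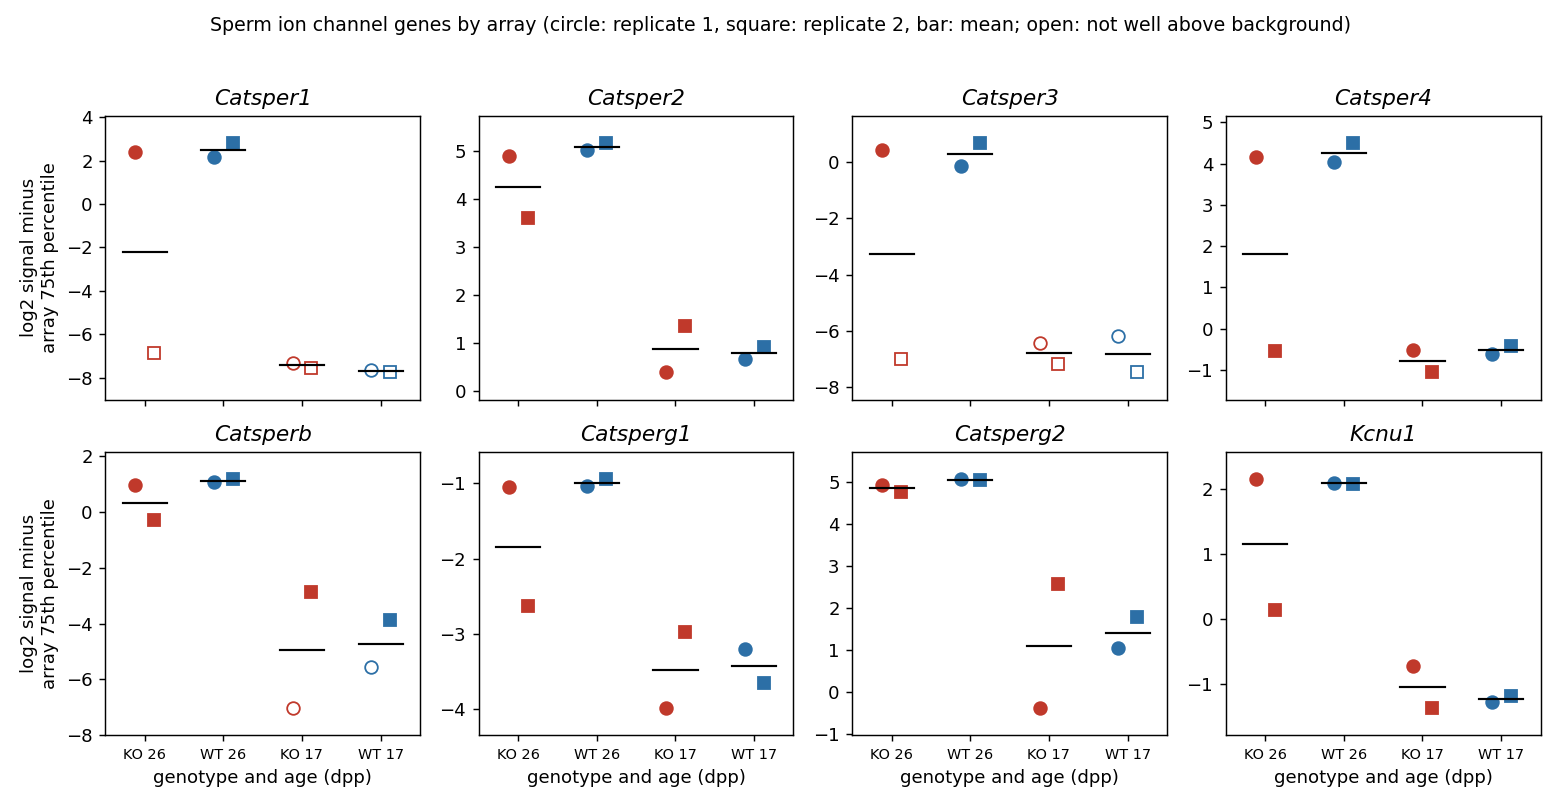
Level of each sperm ion channel gene on each array, as log2 signal minus the array's 75th percentile, for KO and WT testes at 26 and 17 dpp. Circles are replicate 1, squares replicate 2, bars the mean of 2 arrays, and open symbols are not well above background. At 26 dpp KO replicate 1 lies with the WT arrays for all 8 genes, while KO replicate 2 lies lower, with a difference of replicate 2 minus replicate 1 of −0.18 for Catsperg2 and −4.71 for Catsper4, and is not well above background for Catsper1 and Catsper3.

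All 8 genes were higher at 26 dpp than at 17 dpp in WT testes, against a background of 45.7% of the genes tested that passed in that comparison in either direction and 18.5% that passed as higher. Catsper1, Catsper3 and Catsperb entered the test only through arrays of 26 dpp, where they are high, so their calls were favoured by the filter; the other 5 genes were well above background on all 8 arrays, and all 5 passed. The WT arrays of the ages did not overlap for any of the 8 genes, nor, in that direction, for 31.1% of all genes. The median log2 difference of the 8 genes was 4.53, where that of all genes was −0.51. In KO testes, 3 of the 8 genes passed, all higher at 26 dpp: Catsper2, Catsperb and Catsperg2. The background there was 15.8% in either direction and 7.7% higher. The KO arrays of the ages did not overlap for 6 of the 8 genes, Catsper3 and Catsper4 being the exceptions, and in that direction for 21.9% of all genes. Catsper1 is among the 6, but its KO replicate 2 of 26 dpp and both KO arrays of 17 dpp were not well above background. No separation was measured for it. The median log2 difference in KO testes was 3.45 for the 8 genes and −0.34 for all genes. No gene of the 8 differed between KO and WT by the adjusted p in limma, at 26 dpp, where 0.00752% of the genes tested passed, or at 17 dpp, where 0.094% passed. At an unadjusted p under 0.05 the count of these 8 genes was also 0 in both, where 2.42% of all genes at 26 dpp and 1.44% at 17 dpp lay under that value, and it was 0 at the adjusted threshold with limma on the authors' deposited values.

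The pore subunits come first. Catsper1, which forms the pore with the other CATSPER proteins and is required for male fertility, had levels of 2.41 and −6.85 in KO testes and 2.16 and 2.80 in WT testes at 26 dpp. At 17 dpp it was at −7.31 and −7.56 in KO and −7.66 and −7.75 in WT testes. It was well above background only on KO replicate 1 and both WT arrays of 26 dpp. In WT testes the level at 26 dpp was at least 255-fold that at 17 dpp (limma adjusted p = 0.0292). The gene entered the test only through the WT arrays of 26 dpp, the one group with both arrays above background. In KO testes only 1 of the 2 arrays of 26 dpp was above background, so no fold is given, and the difference did not pass (adjusted p = 0.214).

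Catsper3 followed the same pattern on both of its probes. The contiguous probe read 0.46 and −7.02 in KO testes and −0.11 and 0.68 in WT testes at 26 dpp, against −6.43 and −7.18 in KO and −6.19 and −7.48 in WT testes at 17 dpp. As for Catsper1, the 4 arrays of 17 dpp and KO replicate 2 of 26 dpp were not well above background, on either probe. In WT testes the contiguous probe was at least 55.7-fold higher at 26 dpp (adjusted p = 0.0423). The junction probe gave at least 30.3-fold. Catsper3 too entered the test only through the WT arrays of 26 dpp, and with no filter on dim probes its call was lost (adjusted p = 0.0531). In KO testes the difference did not pass (adjusted p = 0.284), and no fold is given because KO replicate 2 was not above background.

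Catsper4, also a pore subunit, was well above background on all 8 arrays through 1 of its 2 probes. It read 4.16 and −0.55 in KO testes and 4.03 and 4.49 in WT testes at 26 dpp, and −0.51 and −1.06 in KO and −0.61 and −0.42 in WT testes at 17 dpp. KO replicate 2 of 26 dpp thus lay among the arrays of 17 dpp. The gene was 27.3-fold higher at 26 dpp in WT testes (log2 difference 4.77 ± 1.38, SE, adjusted p = 0.0361), while the KO difference of 2.59 ± 1.38 did not pass (adjusted p = 0.228). Replicate 2 minus replicate 1 was −4.71 in KO testes of 26 dpp and −0.54 in KO testes of 17 dpp. In WT testes it was 0.46 at 26 dpp and 0.19 at 17 dpp. The shared error thus came mostly from the KO arrays of 26 dpp. Its other probe stayed near background on all 8 arrays and was left out.

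Catsper2 behaved otherwise among the pore genes. Its brighter probe read 4.89 and 3.61 in KO testes and 5.03 and 5.17 in WT testes at 26 dpp, against 0.40 and 1.36 in KO and 0.68 and 0.93 in WT testes at 17 dpp. Both KO arrays of 26 dpp lay above all arrays of 17 dpp. The gene rose 10.3-fold between the ages in KO testes (log2 difference 3.37 ± 0.51, SE, adjusted p = 0.0193) and 19.6-fold in WT testes (4.29 ± 0.51, adjusted p = 0.00644). The dimmer probe read 0.74 and −1.15 in KO testes and 0.79 and 0.76 in WT testes at 26 dpp, and −2.14 and −0.88 in KO and −1.61 and −1.27 in WT testes at 17 dpp. On that probe KO replicate 2 of 26 dpp fell within the range of the arrays of 17 dpp, unlike on the brighter one, and the log2 difference between ages was 1.30 ± 0.69 in KO and 2.21 ± 0.69 in WT testes, with adjusted p over all 37807 probes of 0.224 and 0.0429.

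Of the auxiliary subunits, Catsperb encodes a membrane protein of the complex. Its brighter probe (chr12:102864156-102864215, mm9, plus strand) read 0.95 and −0.31 in KO testes and 1.05 and 1.16 in WT testes at 26 dpp. At 17 dpp it read −7.02 and −2.87 in KO and −5.56 and −3.88 in WT testes, and replicate 1 of either genotype was not well above background there. All arrays of 26 dpp lay above all arrays of 17 dpp. The log2 difference between ages was 5.27 ± 1.35 in KO testes (SE, adjusted p = 0.0495) and 5.83 ± 1.35 in WT testes (adjusted p = 0.0221), where the means at 17 dpp include an array not well above background. The second probe of the gene, in the same transcript, gave 1.40 and 0.29 in KO and 1.24 and 1.55 in WT testes at 26 dpp.

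Catsperg2 showed the smallest gap between the KO arrays of 26 dpp. Its own probe read 4.94 and 4.76 in KO testes and 5.07 and 5.04 in WT testes at 26 dpp, against −0.39 and 2.58 in KO and 1.05 and 1.78 in WT testes at 17 dpp. The gene rose 13.5-fold in KO testes (log2 difference 3.76 ± 0.90, SE, adjusted p = 0.0430) and 12.5-fold in WT testes (3.65 ± 0.90, adjusted p = 0.0258). The probe shared between the paralogs and listed as Catsperg2 read −1.40 and −2.72 in KO testes and −1.48 and −1.29 in WT testes at 26 dpp, and −4.12 and −3.29 in KO and −3.68 and −3.59 in WT testes at 17 dpp. There KO replicate 2 of 26 dpp lay below the other arrays of that age and above those of 17 dpp. On this probe the log2 difference between ages was 1.65 ± 0.50 (SE) in KO and 2.25 ± 0.50 in WT testes. The adjusted p in limma over all 37807 probes was 0.0736 in KO, not passed, and 0.0201 in WT.

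Catsperg1, read by a probe that cannot separate the paralogs, was at −1.05 and −2.63 in KO testes and −1.03 and −0.94 in WT testes at 26 dpp. At 17 dpp it was at −3.98 and −2.98 in KO and −3.19 and −3.65 in WT testes. The WT log2 difference of 2.43 ± 0.59 (SE) passed (5.39-fold, adjusted p = 0.0247), and the KO difference of 1.64 ± 0.59 did not (adjusted p = 0.110).

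Kcnu1, the potassium channel gene (chr8:27048346-27048405, mm9, plus strand), was well above background on all 8 arrays. It read 2.15 and 0.14 in KO testes and 2.10 and 2.08 in WT testes at 26 dpp, and −0.73 and −1.37 in KO and −1.28 and −1.19 in WT testes at 17 dpp. KO replicate 2 of 26 dpp lay between the other arrays of its age and those of 17 dpp. The log2 difference between ages was 3.33 ± 0.64 in WT testes (SE, 10.0-fold, adjusted p = 0.0147) and 2.20 ± 0.64 in KO testes (adjusted p = 0.0675, not passed).

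**Figure D2:**
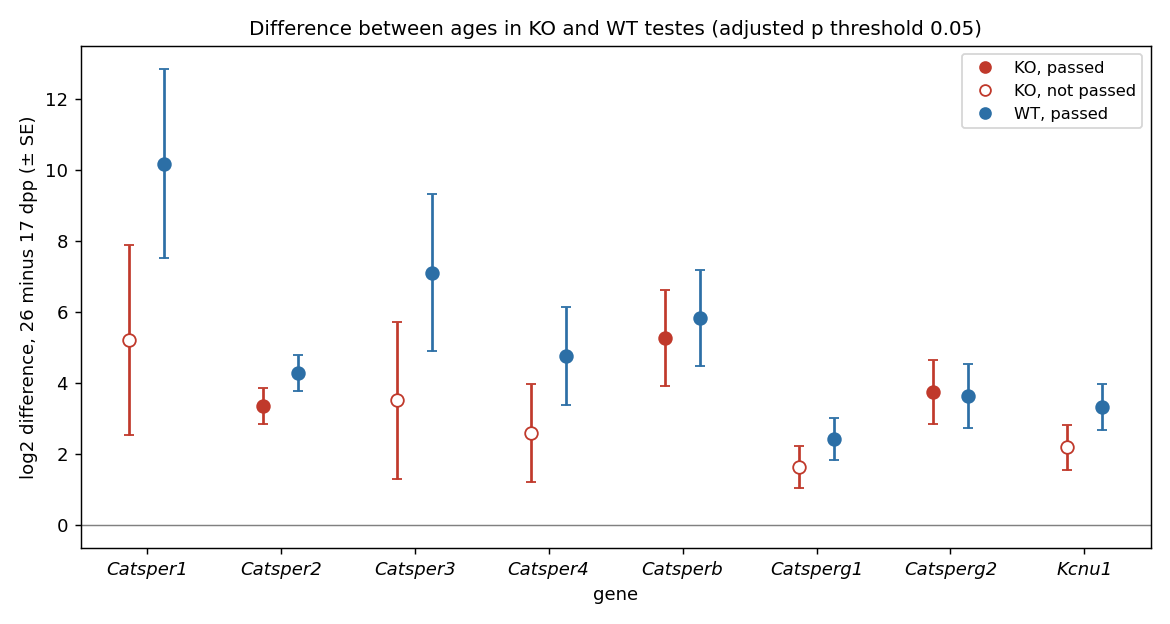
Log2 difference between 26 and 17 dpp for each gene in KO and WT testes, with standard errors from limma (2 arrays per group). The errors are pooled over all groups and so are equal for KO and WT. Filled points passed at an adjusted p under 0.05 and open points did not. All 8 WT points are filled, as are the KO points of Catsper2, Catsperb and Catsperg2. The plotted Catsper1 and Catsper3 differences rest on arrays of 17 dpp that were not well above background.

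The KO count changed with most of the arrays when 1 was left out, WT arrays among them. Without KO replicate 2 of 26 dpp, which leaves 1 KO array of that age assumed to vary like the other groups, all 8 genes passed as higher at 26 dpp in KO testes, where 60.5% of 27170 genes passed and 21.4% passed as higher. Their adjusted p then ran between 0.000123 for Catsper1 and 0.0395 for Catsperg2. Without KO replicate 1 instead, 1 of the 8 passed, where 19.5% of all genes did. None of the 8 passed without KO replicate 1 of 17 dpp, where 0% of all genes passed, or without any 1 of the WT arrays, where 0.2% to 0.486% passed. The WT count was 0 without either WT array of 17 dpp, where 2.16% and 2.03% of all genes passed, and 0 without WT replicate 2 of 26 dpp, where 0.864% did. It was 1 without WT replicate 1 of 26 dpp (6.58% of all genes) and 5 without either KO array of 17 dpp (26.0% and 26.3%). Fitted on the 4 WT arrays alone, it was 8, where 53.8% of all genes passed.

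Between genotypes at 26 dpp, the log2 differences of KO minus WT were all below 0, from −0.20 for Catsperg2 to −4.70 for Catsper1, with a median of −0.90 where that of all genes was 0.12. None passed. The error of each includes the gap between the KO replicates of this age. For Catsperb and Catsperg2 the wider gap was between the KO arrays of 17 dpp. The lack of a pass therefore does not show that the genotypes were alike. Catsper1 had −4.70 ± 2.67, Catsper3 −3.56 ± 2.21 and Catsper4 −2.45 ± 1.38 (SE, adjusted p = 0.523 for each in limma), where KO replicate 2 was not above background for Catsper1 and Catsper3. For Kcnu1 the difference was −0.94 ± 0.64, and for Catsper2 and Catsperg1 −0.85 ± 0.51 and −0.85 ± 0.59, again with adjusted p = 0.523. Catsperb stood at −0.79 ± 1.35 (adjusted p = 0.744) and Catsperg2 at −0.20 ± 0.90 (adjusted p = 0.902).

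Without KO replicate 2, the same differences ran from −0.21 for Catsper2 to 0.17 for Catsper3, and none passed, where 0.313% of 27170 genes did. Without KO replicate 1, 6 of the 8 passed in the comparison of KO with WT at 26 dpp, where 46.8% of 26901 genes did. The level in KO replicate 2 was below both WT arrays for all 8 genes. That held for 37.3% of all genes tested and for 93.7% of the 4926 genes that were higher at 26 dpp in WT testes.

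**Figure D3:**
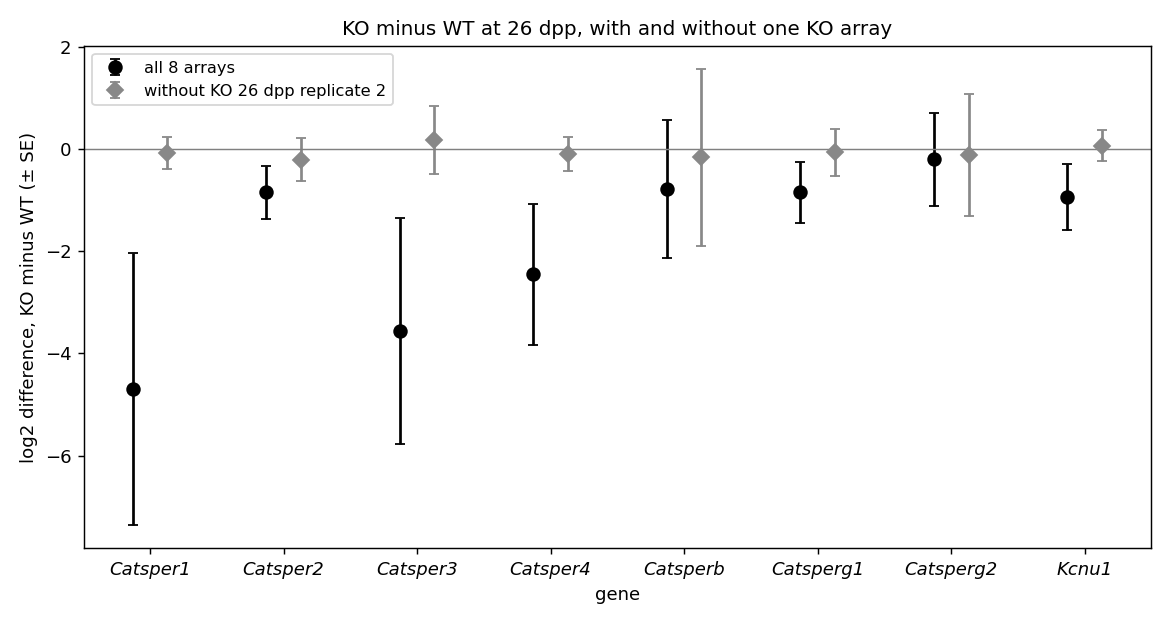
Log2 difference of KO minus WT at 26 dpp for each gene, with standard errors from limma, from all 8 arrays (circles) and without KO replicate 2 (diamonds). With all arrays the points reach −4.70 for Catsper1, and without that array they lie between −0.21 and 0.17. None passed at an adjusted p under 0.05 in either fit.

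At 17 dpp the log2 differences of KO minus WT ran from −0.32 for Catsperg2 to 0.27 for Catsper1, with 4 above 0 and 4 below, and an adjusted p of 1.00 for each in limma. Epididymal markers were well above background on the WT arrays of 17 dpp and on no other pair of arrays. All 5 read above background on both, with sums of 4.94 and 20.6 in multiples of the 75th percentile, against 0.0303 and 0.0314 in KO. The same WT arrays are the reference for the WT difference between ages and for the difference between genotypes in that change. They also set the 0% point of the scale used below. The part of the epididymal markers in these comparisons was not tested. Averaged over both ages, the log2 differences of KO minus WT ran from −2.21 to −0.26, and 0 of the 8 genes passed, as did 0% of all genes, with 2.17% at an unadjusted p under 0.05. The difference between genotypes in the change with age ran from −4.97 for Catsper1 to 0.11 for Catsperg2, and 0 of the 8 genes passed, with 0% of all genes called and 1.9% at an unadjusted p under 0.05. Without KO replicate 1 of 26 dpp, 4 of the 8 passed in each of these last comparisons, where 31.9% and 33.6% of all genes did, and without KO replicate 2 the count was 0 in each, where 0.335% and 0.206% of all genes passed.

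The 2 KO arrays of 26 dpp can be placed on the scale of the WT change with age, on which 0% is the mean WT level at 17 dpp and 100% the mean WT level at 26 dpp, measured in log2. KO replicate 1 stood at 95.2% to 102% for the genes other than Catsper1 and Catsper3, whose WT arrays of 17 dpp were not well above background. KO replicate 2 stood at 92.0% for Catsperg2, 75.8% for Catsperb and 65.2% for Catsper2. It stood at 41.6% for Kcnu1 and 32.7% for Catsperg1. For Catsper4 it was at −0.78%. Catsper1 and Catsper3 have no measured position, since KO replicate 2 and the WT arrays of 17 dpp were not well above background for them. The median of the 4926 genes higher at 26 dpp in WT testes was 50.2%, with quartiles of 17.4% and 70.9%. Catsper4 therefore lay below the lower quartile of those genes, and Catsperg2 and Catsperb above the upper one, with WT replicate 1 of 17 dpp not well above background for Catsperb. Probes of 1 gene did not always stand together. The dimmer Catsper2 probe was at 13.1% and the shared Catsperg2 probe at 40.7%, while the second Catsperb probe was at 83.1%.

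The KO arrays of 17 dpp also differed for some of these genes. On the same scale KO replicates 1 and 2 of 17 dpp stood at −49.4% and 32.0% for Catsperg2, at −39.4% and 31.7% for Catsperb, whose replicate 1 was not well above background, and at −23.0% and 18.3% for Catsperg1. For Catsper2 they stood at −9.40% and 12.98%. The order was the other way for Kcnu1, at 15.3% and −4.02%, and for Catsper4, at −0.077% and −11.4%. In log2, replicate 2 exceeded replicate 1 for Catsperg2 by 2.97 in KO testes and 0.73 in WT testes. The summed spermatocyte markers were 64.2 and 144 in KO testes and 90.6 and 112 in WT testes at 17 dpp, and their part in these differences was not tested.

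Of a list of 26 further genes of the CatSper complex and of sperm ion transport, 24 had a probe. Some carried an older name in the array annotation and were matched by the current symbol of the probe's transcript. In WT testes 14 were higher and 6 lower at 26 dpp than at 17 dpp. In KO testes 9 were higher and 2 lower. Of all genes 18.5% were higher and 27.2% lower in WT testes, and 7.7% were higher and 8.09% lower in KO testes. The counts of lower genes, 6 and 2 of 24, lay near those shares of all genes. None passed between KO and WT at either age, and 0 had an unadjusted p under 0.05 in limma. The medians of the log2 difference between ages were 2.86 in KO and 4.01 in WT testes. Without KO replicate 2 of 26 dpp the KO counts were 15 higher and 5 lower, where 21.4% of all genes were higher and 39.1% lower.

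Other CatSper components differed in how near KO replicate 2 of 26 dpp stood to the WT level. Catsperd, an auxiliary subunit, read 4.90 and 4.21 in KO testes and 5.003 and 5.06 in WT testes at 26 dpp, and rose between the ages in both (KO 14.5-fold, adjusted p = 0.0168; WT 23.7-fold, adjusted p = 0.00595). Catsperz, another, read 7.47 and 6.88 in KO testes and 7.62 and 7.76 in WT testes at 26 dpp, and also rose in both (KO 81.8-fold, adjusted p = 0.0279; WT 127-fold, adjusted p = 0.0123). Both stayed close to the WT level in KO replicate 2, at 82.1% and 88.4% of the WT change, as did C2cd6, which takes part in targeting the channel to the flagellum, at 87.7%. Efcab9, the calcium sensor that binds CATSPERZ, did not stand with it. It read 5.12 and −0.29 in KO testes and 4.94 and 5.45 in WT testes at 26 dpp, so that KO replicate 2 stood at 19.5% of the WT change, and it passed in WT (adjusted p = 0.0224) and not in KO testes (adjusted p = 0.122). Tmem262, another component, was at 17.3% there, and Catspere2, not well above background in WT testes of 17 dpp, at 56.5%.

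The potassium channel's partner Lrrc52, the auxiliary subunit of SLO3, read −1.95 and −6.97 in KO testes and −2.44 and −1.73 in WT testes at 26 dpp, and KO replicate 2 and all arrays of 17 dpp were not well above background. It was at least 10.8-fold higher at 26 dpp in WT testes (adjusted p = 0.0328). The relatives of Kcnu1 went the other way with age in WT testes. So did many genes, with 27.2% passing as lower there and a median log2 difference of −0.51 over all genes. Kcnma1, which encodes SLO1, was lower at 26 dpp in WT testes (log2 difference −1.27 ± 0.26, SE, adjusted p = 0.0167), as was Kcnt1 (−3.07 ± 0.96, adjusted p = 0.0437), whereas Kcnt2 had −0.82 ± 0.33 and did not pass (adjusted p = 0.0855).

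Among transporters and enzymes that act beside CatSper, Slc9c1, the sperm sodium/proton exchanger, read 4.94 and 3.36 in KO testes and 5.01 and 5.18 in WT testes at 26 dpp and rose in both (adjusted p = 0.0242 in KO and 0.0133 in WT). Adcy10, the soluble adenylyl cyclase, rose 17.6-fold in KO and 69.5-fold in WT testes (adjusted p = 0.0283 and 0.00762). Atp1a4, the sodium pump subunit of sperm, read 4.67 and −4.22 in KO testes and 4.25 and 5.42 in WT testes at 26 dpp and passed in WT (adjusted p = 0.0224) but not in KO testes (adjusted p = 0.178). Hvcn1, the voltage-gated proton channel, and P2rx2, an ATP-gated cation channel, were lower at 26 dpp in both genotypes, with log2 differences of −1.74 and −1.19 in KO and −1.18 and −1.18 in WT testes. On the scale of the WT change, KO replicate 2 of 26 dpp stood at 76.2% for Slc9c1, 51.1% for Adcy10 and 21.1% for Atp1a4, whose WT arrays of 17 dpp were not well above background.

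**Figure D4:**
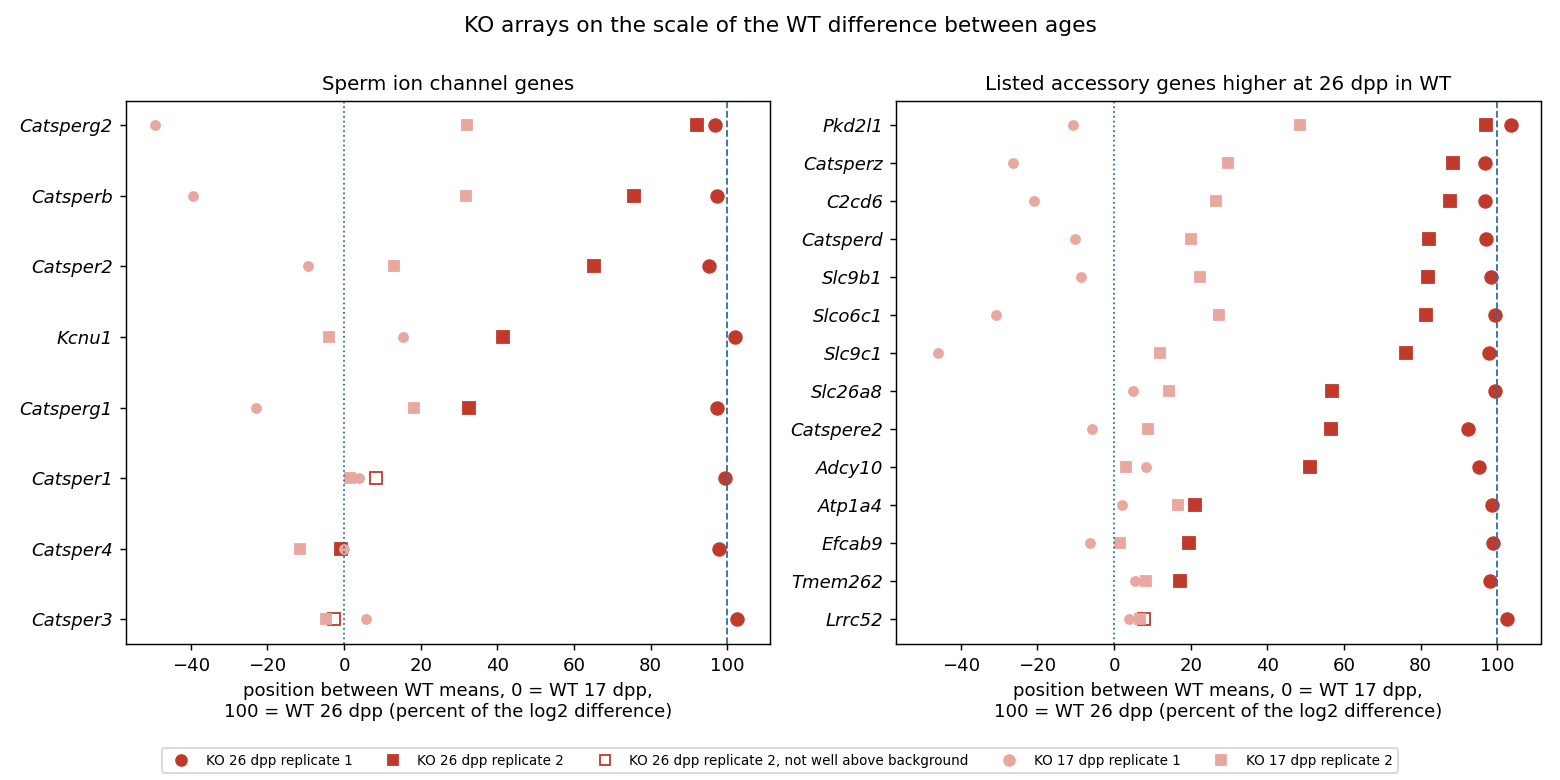
Position of each KO array between the mean WT level at 17 dpp (0) and at 26 dpp (100), in percent of the log2 difference, for the 8 sperm ion channel genes and for the 14 listed accessory genes that were higher at 26 dpp in WT testes. Dark circles are KO replicate 1 and dark squares KO replicate 2 of 26 dpp, open where not well above background. Pale symbols are the KO arrays of 17 dpp, drawn without regard to background. Replicate 1 lies near 100 throughout, and replicate 2 spreads from −0.78% for Catsper4 to 92.0% for Catsperg2 among the channel genes above background.

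Genes with like profiles were sought over the 8 arrays, as the root mean square log2 difference between profiles after each gene's own mean was removed. The nearest named genes to the median profile of the 8 channel genes were BG100880 at 0.17, Gm10473 at 0.17, 6820408C15Rik at 0.18 and Spata17 at 0.18. Among the channel genes themselves Catsper2 lay nearest to that median, at 0.42, and Catsper1 farthest, at 2.80. Each had its nearest gene outside the 8. That was likely from the outset, since 26584 genes were searched and only 8 are channel genes. It does not show that the channel genes are unlike each other. Catsper2 was nearest to Cetn4, at 0.08, and Catsperg2 to Spats1, at 0.08, while the distance between Catsper2 and Catsperg2 was 0.65. Catsper1 was nearest to 1700016D06Rik, at 0.13, and its distance to Catsper3 was 1.37. Catsper4 was nearest to Ttc39a, at 0.17, Catsperb to Armc3, at 0.24, and Kcnu1 to Mir124-2hg, at 0.17. Of the 26584 genes, the number nearer than the closest other channel gene ran from 221 for Catsperg2 to 1490 for Catsperg1. The profiles share the same arrays, slide and groups, so the distances describe these 8 arrays, and those of Catsper1, Catsper3 and Catsperb include readings not well above background.

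RefSeq promoters (GRCm38.p6, 250 bases before to 50 after the start) were at hand for 5 of the 8 genes, with 6 promoters in all. Since the genes moved together with age, motifs tied to late male germ cells were searched on both strands. The CRE core TGACG was in 1 of the 6, and in 20.8% of all 32851 promoters, and its palindrome TGACGTCA in 0, and in 1.79% of all. The X-box core GTTGCC was in 0 of the 6 (12.5% of all), the MYB core AACNG in 4 (80.3% of all) and TATAAA in 1 (13.6% of all). The longer X-box, the palindromic motif of the RFX factors, was searched after the promoter sequences had been seen, and was in 1 of the 6, and in 0.387% of all. The promoters with a CRE core and with the X-box are shown as the 150 bases before the start, with the motif in capitals. The Catsper2 stretch lies at chr2:121413793-121413942 and the Catsperg1 stretch at chr7:29214034-29214183 (GRCm38.p6, both minus strand). The CRE core in Catsper2 reads CGTCA on the strand shown. A match of letters does not show that a factor binds there.
Catsper2 promoter: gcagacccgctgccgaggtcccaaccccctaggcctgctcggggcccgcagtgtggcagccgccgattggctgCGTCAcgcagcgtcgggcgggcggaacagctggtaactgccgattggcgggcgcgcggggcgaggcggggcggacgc
Catsperg1 promoter: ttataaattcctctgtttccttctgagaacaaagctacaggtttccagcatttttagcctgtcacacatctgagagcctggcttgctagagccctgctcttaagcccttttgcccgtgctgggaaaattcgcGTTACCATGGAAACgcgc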

How the data were processed

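Total RNA of 8 testis samples was labelled with Cy3 and hybridised to 1-colour Agilent arrays, 2 per group, per the labels. The processed signal is an intensity on a linear scale, corrected for background by Agilent Feature Extraction 11.5.1.1 and deposited per array, per the file headers. The authors' deposited value table holds log2 values of unstated scale. Set against the same arrays, its columns followed log2 of the processed signal minus the array's 75th percentile, with medians of −3.69, −3.69, −3.67, −3.63, −3.59, −3.64, −3.62 and −3.84 in accession order, and no centring per probe. How spots of a probe were combined there is unknown. Probe positions are given as in the files (mm9).

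Outlier spots (103 to 200 per array) were dropped, spots of a probe averaged in log2, and the log2 75th percentile over probes subtracted. That percentile was 416 to 628, and 58.9% to 64.7% of the probes were well above background. The number of arrays limits the precision. A probe stayed in when 1 group or more had both its arrays well above background (37807 probes), and a gene was read from its brightest kept probe. limma 3.58.1 in R 4.3.3 fitted 1 mean per group over all 8 arrays, with 4 residual degrees of freedom, two-sided moderated tests and Benjamini-Hochberg adjustment over 26584 genes for 6 comparisons. The fit was tested on simulated data. No exon or UTR was assigned, since no genome was used here. All 8 genes and every probe were named by rule, and likeness was measured as stated. The genes and the lists were chosen with earlier results of these data known.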

Additional observations from a re-analysis of the deposited data

How the results depend on the processing

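Of the 8 channel genes, 3 passed between 26 and 17 dpp in KO testes. The count was 1 with no filter on dim probes, where 9.84% of all genes passed, 2 with quantile normalization (Catsperb adjusted p = 0.0527), 0 with limma's array weights, where 0.199% of all genes passed, 0 on the 4 KO arrays alone, where 0% passed, and 0 to 8 when 1 array was left out. With every array above background it was 3 of 5, Kcnu1 then among them (adjusted p = 0.0486), where 19.1% of all genes passed. Quantile normalization passed 15.1% of all genes in KO testes. For the WT counts that follow, 31.7% of all genes passed with no filter on dim probes. With every array above background 49.3% of all genes passed in WT testes. In WT testes all 8 passed, 7 with no filter on dim probes (Catsper3 adjusted p = 0.0531), 5 of the 5 that remain when every array must be above background, and 0 to 8 with 1 array left out. Between KO and WT the count with 1 array left out was 0 to 6 at 26 dpp, 0 to 4 averaged over both ages and 0 to 4 for the difference in the change with age. At 17 dpp it was 0 under every alternative run. With the replicate number as a block the KO count between ages was 1, where 4.71% of all genes passed, and no other count changed. Deviations of same-numbered arrays correlated at −0.40 to 0.11, so the numbers are not taken to pair animals. The cause of these changes was not tested, except that leaving out an array lowers the degrees of freedom.

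Signs turned only in differences that did not pass in the fit described above. Some ends of the ranges given below, from fits with 1 array left out, did pass in those fits. For KO minus WT at 17 dpp, Catsperb had a log2 difference of 0.10 and Catsperg1 of 0.023 with normexp background, and Catsper3 had −0.23 with quantile normalization and −0.0069 with median scaling. Catsperg2 had −0.24 for the difference in the change with age when its probes were averaged. With 1 array left out, KO minus WT at 17 dpp ran from −0.40 to 0.56 for Catsper2, −0.61 to 0.67 for Catsper3, −2.15 to 1.67 for Catsperb, −0.56 to 0.44 for Catsperg1, −1.80 to 1.17 for Catsperg2 and −0.13 to 0.51 for Kcnu1. At 26 dpp it ran from −7.30 to 0.17 for Catsper3 and −1.94 to 0.064 for Kcnu1. Averaged over both ages it ran from −4.53 to 0.10 for Catsper1, −3.63 to 0.10 for Catsper3, −1.35 to 0.56 for Catsperb, −1.001 to 0.48 for Catsperg2 and −0.88 to 0.13 for Kcnu1. The difference in the change with age ran from −7.33 to 0.14 for Catsper3, −4.53 to 0.18 for Catsper4, −2.22 to 1.60 for Catsperb and −1.37 to 1.60 for Catsperg2. The KO difference between ages of Catsper3 ran from −0.21 to 7.26. Catsper1, Catsper3 and part of the Catsperb arrays at 17 dpp are limited by signal near background.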
